A study of Mus musculus with 2 samples.

Results

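Voltage-gated calcium and sodium channel subunits, TRP cation channels, Orai channels, calcium pumps, intracellular calcium release channels and STIM calcium sensors were described in mouse pancreatic islets. Members were all probe sets assigned to a single gene whose symbol begins with Cacn, with Scn, Ryr, Trpc, Trpm or Trpv followed by a digit, or with the pump prefixes Atp2a, Atp2b and Atp2c, together with the Itpr, Stim and Orai genes. The rule uses no measured value, and it took 171 probe sets for 73 genes out of 45037 probe sets and 18193 genes on the array. By known location, 60 of the genes act mainly at the plasma membrane and 12 in intracellular calcium stores. The remaining gene, Trpc4ap, matches the Trpc pattern by its symbol but encodes a protein associated with a channel, not a channel.

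The study looked for genes under the control of ZBTB20, a zinc finger transcription factor, in beta cells. It used 1 Affymetrix array for islets of wildtype littermate mice and 1 for islets of mice with a beta cell-specific ZBTB20 knockout. All mice were adult, 2 to 3 months old and of mixed background, and the islets of both groups were released with collagenase, picked by hand and kept in culture overnight. The driver of the deletion, the deleted part of the gene and the number of animals behind each array are not given in the sources used here.

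With 1 array per group there is no replicate error, so no difference below was tested for significance, and each ratio compares a pair of RNA preparations. Signals are MAS5 intensities in arbitrary units, a MAS5 signal being the summary of the probes of a probe set. A gene is described by its brightest probe set. The median of all probe sets on an array, 21.6 for the control and 21.7 for the knockout, served as a floor. Genes under it on both arrays were not measured, and a ratio with 1 side under it is a bound. Signals of different genes were not set against each other, because probe sets differ in how strongly they bind. The 9 Zbtb20 probe sets did not move together (5 lower and 4 higher in the knockout). Their log2 ratios ran from -0.87 (99.8 in control and 54.7 in knockout) to 0.54 (100.3 and 146.3). These readings do not show the loss of the gene, so the knockout array is called knockout-labelled. Whether the probe sets lie outside the deleted part, or other islet cells supply the signal, was not tested. Markers of the tissue were bright on both arrays, the insulin gene Ins2 giving 9194 (control) and 7786 (knockout-labelled) and the glucagon gene Gcg 11215 and 10292.

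In beta cells, glucose metabolism closes ATP-sensitive potassium channels, the membrane depolarises, and voltage-gated calcium channels open to let in the calcium that triggers insulin release. Sodium channels and the calcium-activated TRP channels Trpm4 and Trpm5 shape this electrical activity. Pumps of the plasma membrane remove the calcium again, SERCA pumps load it into the endoplasmic reticulum, IP3 receptors and ryanodine receptors release it from there, and STIM proteins sense an empty store and open Orai channels at the cell surface.

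No member reached 2-fold in either direction, against a background of 3.26% of the 11802 genes measured on the array, 1.82% of them higher and 1.44% lower. This does not show that every member changed by less than 2-fold, since members above the floor on 1 array only have a lower bound. With the floor lowered to the 30th percentile, 2 members were 2-fold higher (Cacng2 and Itpr2) and 4 lower (Cacnb1, Cacng4, Cacng7 and Trpc5). Calls over all genes rose as well at that floor, from 215 to 695 higher and from 170 to 638 lower. The shares above therefore do not apply to those members. Adding 16 to each signal in place of the floor put Cacng2 past 2-fold, with 262 of all genes higher. Averaging all probe sets of a gene put Trpm5 past it, with 220 of all genes higher. Among the 73 member genes, 29 were above the floor on both arrays, 6 on the control array only, 6 on the knockout-labelled array only and 32 on neither. The share above the floor on both arrays was 39.7% for the members and 57.4% for all genes. The 41 measured members had a median log2 ratio of knockout-labelled over control of -0.046, with 18 above and 23 below 0. The median over all measured genes was 0, with 5893 above and 5879 below.

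**Figure D1:**
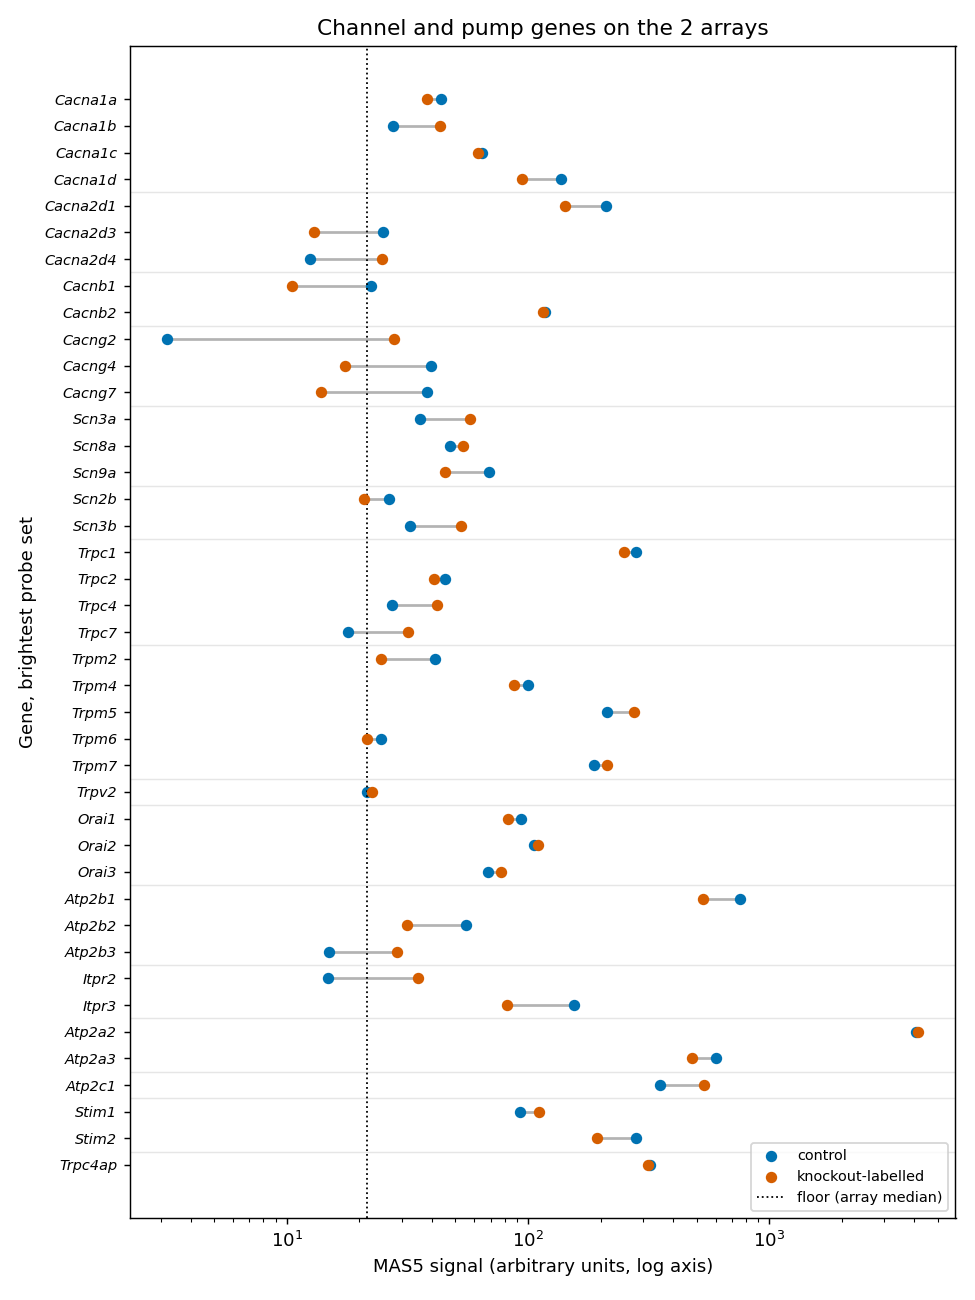
MAS5 signal on a logarithmic axis for the 41 member genes above the floor on at least 1 array, with control in blue and knockout-labelled in orange and genes grouped by family. The dotted line is the control floor of 21.6. The longest lines cross the floor, as for Cacng2 (3.2 and 27.8). Lines of brighter genes differ in length, from short for Atp2a2 (4084 and 4142) to longer for Itpr3 (155 and 81.6).

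Smaller differences were common among the members. A log2 ratio of 0.5 or more in size, above the floor on both arrays, was reached by 13 of 29 members (44.8%), against 16.2% of the 10450 genes measured that way. Of these members, 5 were higher and 8 lower in knockout-labelled islets, beside 8.37% and 7.79% of the genes. The spread of ratios is wider for dim genes, so the count was also taken by signal. Under a mean signal of 100, 7 of 14 members (50%) reached this size, against 26.1% of genes. From 100 on, 6 of 15 members (40%) did, against 10.1% of genes. Around each gene, the central 95% of the 500 genes nearest in signal gives the usual spread, which by its making leaves 5% of genes outside. Of the 29 members, 2 lay outside it, near that share. They were Itpr3, read by 1 probe set, and Atp2c1, whose 3 measured probe sets did not all read alike.

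**Figure D2:**
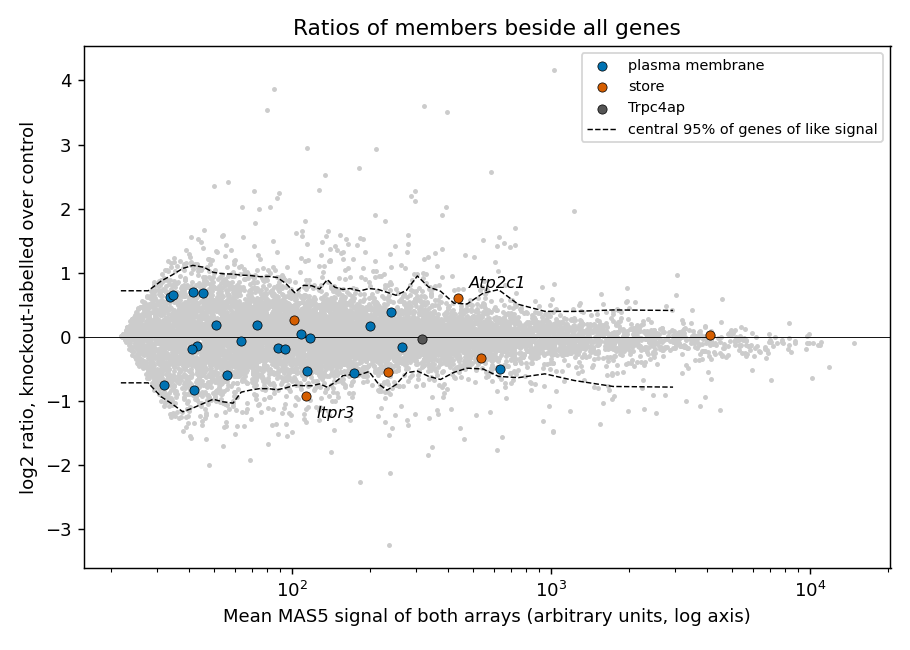
Log2 ratio of knockout-labelled over control against the mean signal of both arrays on a logarithmic axis. Grey points are the 10450 genes measured on both arrays, coloured points the 29 members, and dashed lines bound the central 95% of genes of similar signal. Itpr3 at -0.93 lies below the lines and Atp2c1 at 0.60 above them.

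Plasma membrane and store genes were also summarised apart. The 33 measured plasma membrane genes had a median log2 ratio of -0.059, with 14 above and 19 below 0. The 7 measured store genes had a median of 0.020, with 4 above and 3 below 0. The plasma membrane median minus the store median was -0.079 on the log2 scale, and over the genes above the floor on both arrays (22 and 6 genes) it was 0.055. The sign of the difference thus depended on which genes were taken, and no error of these medians could be had from 1 array per group. With 7 measured genes, the store median rests on single genes: without the Golgi pumps and STIM sensors it was -0.16.

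**Figure D3:**
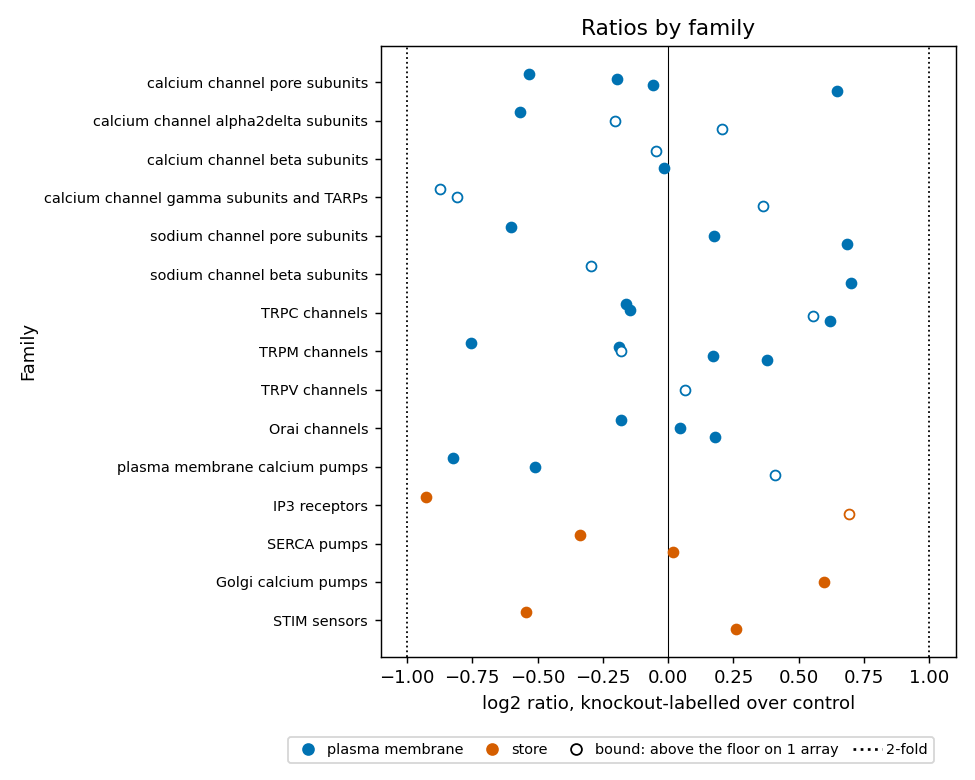
Log2 ratio of knockout-labelled over control for each measured gene by family, plasma membrane genes in blue and store genes in orange. Filled points are above the floor on both arrays, open points are bounds, and dotted lines mark 2-fold. All points lie between the dotted lines, from -0.93 for Itpr3 to 0.70 for Scn3b, and every family with more than 1 measured gene except the calcium channel beta subunits has points on both sides of 0.

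Among the release channels of the store, the IP3 receptor gene Itpr3 had the ratio farthest from 1 of all members measured on both arrays. Control islets gave a signal of 155 and knockout-labelled islets 81.6. The knockout-labelled value was 1.90-fold lower (log2 ratio -0.93), where genes of similar signal ran from -0.75 to 0.80. A single probe set measured it, so no other reading of the gene was at hand. Itpr3 is also a receptor of exocrine acinar cells, whose markers were lower on the same array. Of 15 acinar markers found, 13 were measured, 12 of them lower and 1 higher, and their summed signal was 47598 on the control array and 25276 on the other. No acinar marker was at 0, although the acinar transcription factor genes Ptf1a and Rbpjl were under the floor on both arrays. Acinar markers were not alone in this. All 5 measured duct markers were lower (summed signal 7091 and 5666), as were 4 of 5 alpha cell markers (25555 and 20916), with 1 higher. Of 9 beta cell markers, 6 were lower and 3 higher (32901 and 29263). Endothelial markers split into 6 lower and 2 higher, and fibroblast and smooth muscle markers into 5 lower and 2 higher. Delta and PP cell markers split into 2 lower and 3 higher, with a lower sum (31022 and 26207). Macrophage markers were higher, as given below. Over all measured genes, 49.9% were above 0. The part of any of these cells in the Itpr3 difference was not tested. In whole islets, fewer cells of a type and less RNA per cell cannot be told apart.

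The other IP3 receptor gene with a probe set of its own, Itpr2, pointed the other way near the floor. Its brightest probe set gave 14.8 in control islets and 34.9 in knockout-labelled ones, at least 1.62-fold higher. That probe set carries the suffix _s_at, which marks probes shared by several transcripts, and without such probe sets the bound was 1.12-fold (12.1 and 24.1). Of its 6 probe sets, none was above the floor on both arrays. Itpr1 was not analysed here. The ryanodine receptor genes Ryr1, Ryr2 and Ryr3 stayed under the floor in all 7 probe sets, the highest signal being 12.2. For Ryr2, the form best known from heart muscle and also studied in beta cells, the brighter probe set gave 6.6 and 4.6.

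The store pumps differed by gene. Atp2a2 encodes the SERCA pump found in most cell types, and its brightest probe set gave 4084 in control islets and 4142 in knockout-labelled ones. All 6 Atp2a2 probe sets were above the floor on both arrays, with log2 ratios from -0.033 to 0.27. The brightest reading was thus nearly equal, while the reading farthest from equal was 232 and 280, 1.21-fold higher. Atp2a3 encodes a SERCA pump with a narrower tissue range that includes beta cells. Its signal went from 603 to 478, 1.26-fold lower, and its other probe set read 232 and 196. Both Atp2a3 readings were lower, by 0.34 and 0.25 on the log2 scale. Atp2a1, the SERCA pump of fast skeletal muscle, was under the floor on both arrays (6.6 and 12.7).

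Atp2c1, which encodes a calcium and manganese pump of the Golgi apparatus, was the store gene with the highest ratio among those measured on both arrays. Its brightest probe set gave 354 in control islets and 536 in knockout-labelled ones. The latter value was 1.51-fold higher (log2 ratio 0.60), where genes of similar signal ran from -0.50 to 0.49. Another probe set read 160 and 262, a log2 ratio of 0.71, but one more read 130 and 133. The readings of Atp2c1 thus ranged from nearly equal to 0.71, and its 2 remaining probe sets were under the floor on both arrays. Atp2c2, the other Golgi pump gene, was under the floor on both arrays (1.5 and 4.9).

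The store sensors differed in their brightest probe sets. Stim2, which responds to small drops in store calcium, gave 282 in control islets and 193 in knockout-labelled ones, 1.46-fold lower. Stim1, the main activator of Orai channels after store emptying, gave 93.1 and 111, 1.20-fold higher. The other Stim1 probe set, next to the floor, went the other way (23.2 and 18.3), and averaging both turned the Stim1 log2 ratio to -0.042. Neither gene lay outside the spread of genes of similar signal, and each had just 1 probe set above the floor on both arrays.

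The Orai genes, which encode the surface channels opened by STIM proteins, were all above the floor on both arrays. They were close to equal in their brightest probe sets only. Orai1 gave 93.4 in control islets and 82.4 in knockout-labelled ones in its brighter probe set. Its other probe set read 21.2 and 40.2 and so went the other way from a control signal under the floor. Orai2 gave 106 and 110, but its other probe set read 47.9 and 71.6, a log2 ratio of 0.58. Orai3 gave 68.4 and 77.5 in its single probe set.

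Among the pore subunits of voltage-gated calcium channels, the L-type genes Cacna1c and Cacna1d, the main L-type channels of beta cells, were measured by 2 probe sets each. Cacna1c was close to equal, with 64.7 (control) and 62.1 (knockout-labelled) in the brighter probe set and 53.3 and 63.4 in the other. Cacna1d was lower in both readings, from 137 to 94.7 (1.45-fold) and from 77.3 to 63.7. The brighter Cacna1d probe set is also an _s_at probe set, and the other one gave a log2 ratio of -0.28. The P/Q-type gene Cacna1a gave 43.7 and 38.2 in its brightest probe set, and its other 2 measured probe sets went the other way (log2 ratios of 0.16 and 0.38). For Cacna1b, the N-type gene, the signal was 27.6 on the control array and 43.2 on the other (log2 ratio 0.65), with 3 further probe sets under the floor on both arrays. Dim genes near this signal ran from -1.05 to 0.96, so the Cacna1b ratio lies well inside their spread. The R-type gene Cacna1e, the T-type genes Cacna1g and Cacna1h, and the retinal and muscle genes Cacna1f and Cacna1s were under the floor on both arrays, with Cacna1h next to it at 21.1 and 20.6.

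Auxiliary subunits of calcium channels bring the pore to the membrane and tune its gating. Cacna2d1, an alpha2delta subunit gene, gave 210.2 in control islets and 142 in knockout-labelled ones, 1.48-fold lower (log2 ratio -0.57, with genes of similar signal from -0.58 to 0.72). All 5 Cacna2d1 probe sets were lower on the knockout-labelled array, 2 of them above the floor on both arrays and the other 3 above it in control only. The other alpha2delta genes were at or near the floor: Cacna2d3 gave 25 and 13, Cacna2d4 12.5 and 24.9, and Cacna2d2 was under the floor on both arrays. Cacnb2, a beta subunit gene expressed in beta cells, was nearly equal at 117 and 116. Cacnb1 was next to the floor in its brightest probe set, an _s_at one (22.4 and 10.5), and another probe set went the other way (3.4 and 25). Cacnb4 was under the floor, while Cacnb3 was not analysed here.

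The gamma subunit family includes the TARPs, which act on AMPA-type glutamate receptors in neurons more than on calcium channels. None of its 8 genes was above the floor on both arrays. Cacng4 gave 39.8 in control islets and 17.5 in knockout-labelled ones and was at least 1.83-fold lower, and Cacng7 gave 38 and 13.9 and was at least 1.75-fold lower. Cacng2 gave 3.2 and 27.8 and was at least 1.29-fold higher. Each of these genes had other probe sets that were under the floor on both arrays, so a single dim reading carries each bound.

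Sodium channel genes held both of the highest ratios among the plasma membrane members. The pore subunit gene Scn3a, which contributes to the sodium current of islet cells, gave 35.7 in control islets and 57.4 in knockout-labelled ones, 1.61-fold higher. Scn3b, an auxiliary subunit gene, gave 32.5 and 52.8, 1.62-fold higher, the highest log2 ratio of the members measured on both arrays (0.70). Each of these ratios rests on a single probe set. The other Scn3a probe set (4.4 and 1.8) and the other Scn3b probe set (1.6 and 7.4) were under the floor on both arrays. Scn9a, the main sodium channel gene of mouse beta cells, went the other way, from 68.9 to 45.4 (1.52-fold lower). Its brightest probe set has the suffix _x_at, which marks probes that can bind other transcripts. Another Scn9a probe set read 32.4 and 18.4. Scn8a was nearer to equal (47.6 and 53.8), and the other sodium channel pore genes measured by a probe set, Scn1a, Scn2a, Scn7a, Scn10a and Scn11a, were under the floor on both arrays. Of the other auxiliary genes, Scn2b was at the floor (26.6 and 21) and Scn4b under it (2.7 and 5.9). The Scn3a, Scn3b and Scn9a ratios all lay within the spread of genes as dim, which for Scn3a ran from -1.04 to 1.08.

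Schwann cell and neuron markers, another possible source of sodium channel transcripts, were higher in all 6 measured of the 9 found, with a summed signal of 1629 in control and 1868 in knockout-labelled islets. Most of that sum was Snap25 (1239 and 1341), which islet endocrine cells also express, and the markers Gfap, Prph and S100b were under the floor on both arrays. Their part in the sodium channel ratios was not tested.

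TRPM channels included both calcium-activated members known from beta cells. Trpm5 gave 212 in control islets and 275 in knockout-labelled ones, 1.30-fold higher, and its next probe set read 68.5 and 100.2. Both readings were higher in knockout-labelled islets. Trpm4 gave 99.6 and 87.5, 1.14-fold lower. Trpm2, a channel opened by ADP-ribose and oxidative stress in beta cells and in macrophages, gave 41.3 and 24.5, 1.69-fold lower. Its knockout-labelled signal was next to the floor of 21.7. Macrophage markers moved the other way on the same array, with 11 of 12 measured genes higher and a summed signal of 1223 in control and 1915 in knockout-labelled islets. Their part in the Trpm2 difference was not tested.

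Trpm7, a channel fused to a kinase and found in most cells, showed how far the readings of a gene can part. Its brightest probe set gave 189 in control islets and 213 in knockout-labelled ones, while a dimmer one gave 40.1 and 25.7, a log2 ratio of -0.64. Trpm6 was at the floor (24.6 and 21.5). Trpm1, Trpm8 and Trpm3, whose channel is activated by the steroid pregnenolone sulfate in beta cells, were under the floor on both arrays, the brightest of the 6 Trpm3 probe sets giving 9.2 and 11.

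In the TRPC family, Trpc1 gave 281 in control islets and 251 in knockout-labelled ones and 62.9 and 58 in its other probe set, both slightly lower. Trpc4 gave 27.2 and 41.8, 1.54-fold higher, and Trpc7 gave 17.9 and 31.7, at least 1.47-fold higher. Both are near the floor, where genes as dim as Trpc4 ran from -1.03 to 0.93. The other Trpc4 probe sets were under the floor on both arrays (13.1 and 13.3, and 7.9 and 2.8). Trpc2 gave 45.2 and 40.8 in its brighter single-gene probe set, and Trpc5 and Trpc6 were under the floor on both arrays. TRPV channels were barely measured: Trpv2 gave 21.6 and 22.6, at the floor, and Trpv1, Trpv4 and Trpv6 were under it. Trpc4ap, the member that is no channel, gave 322 and 314.

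Plasma membrane calcium pumps expel calcium from the cell. Atp2b1, the widely expressed form, gave 757 in control islets and 532 in knockout-labelled ones, 1.42-fold lower (log2 ratio -0.51, with genes of similar signal from -0.62 to 0.68). Its other probe sets read 437 and 343, and 74.7 and 71.7. All 3 Atp2b1 readings were lower, by between 0.059 and 0.51 on the log2 scale. Atp2b2 gave 55.6 and 31.4, 1.77-fold lower, in 1 of its 3 probe sets, and the other 2 were under the floor on both arrays. Atp2b3 gave 14.9 and 28.7 and was at least 1.33-fold higher, and Atp2b4 was under the floor (0.9 and 8.3).

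**Figure D4:**
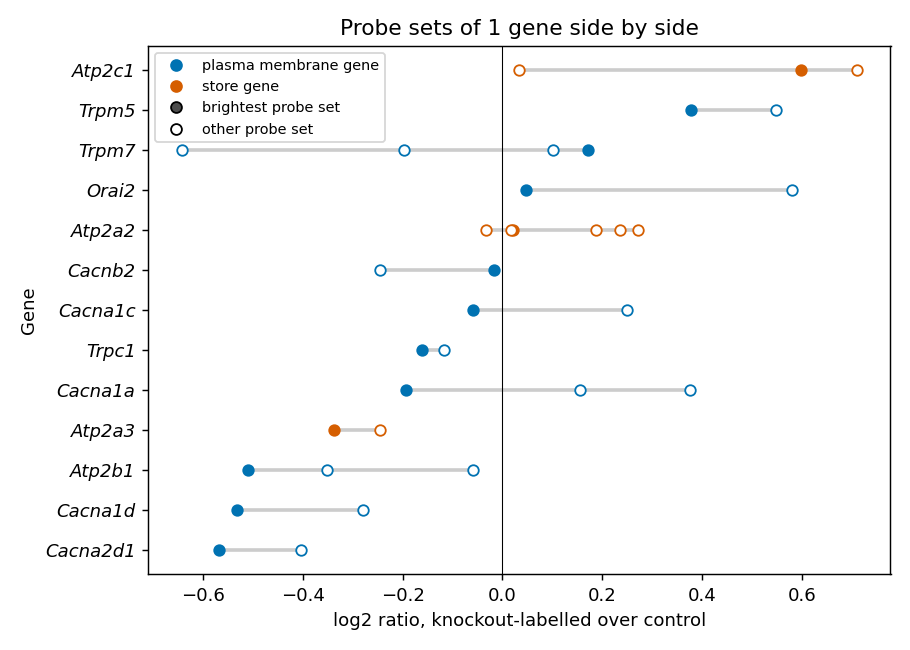
Log2 ratio of knockout-labelled over control for every probe set measured on both arrays, for the 13 member genes with at least 2 of them. Filled points are the brightest probe sets, used for the gene, and open points the others. All genes but 4 (Atp2a2, Cacna1a, Cacna1c and Trpm7) have their points on the same side of 0, and Trpm7 spans -0.64 to 0.17.

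Probe sets of a gene give a reading of measurement error within the arrays, but they share the RNA and the hybridisation. Among the 13 members with at least 2 probe sets above the floor on both arrays, the median SD of the log2 ratio was 0.18, against 0.21 over 4719 genes. In 4 of the 13 (30.8%) the probe sets lay on both sides of 0, as they did in 50.9% of all such genes. These were Atp2a2, Cacna1a, Cacna1c and Trpm7.

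Upstream sequence is shown for the bright members with the larger ratios, to set a gene that was higher (Atp2c1) beside genes that were lower. The log2 ratio was 0.5 or more in size and the mean signal 100 or more in 6 genes: Atp2b1, Atp2c1, Cacna1d, Cacna2d1, Itpr3 and Stim2. RefSeq, on GRCm38.p6, gave 9 start sites for them. The 250 bases before the start site are printed for the 4 windows whose start lies within 30 bases of the upstream edge of the annotated gene. They are chr9:105521258-105521507 (minus strand) for Atp2c1, chr5:53998273-53998522 (plus strand) for Stim2, chr10:98914392-98914641 (plus strand) for Atp2b1 and chr14:30491157-30491406 (minus strand) for Cacna1d. Capitals mark the GC box GGGCGG, the hypoxia response core ACGTG and the TATA box TATAAA, each searched on both strands, and neighbouring matches can overlap.
Atp2c1: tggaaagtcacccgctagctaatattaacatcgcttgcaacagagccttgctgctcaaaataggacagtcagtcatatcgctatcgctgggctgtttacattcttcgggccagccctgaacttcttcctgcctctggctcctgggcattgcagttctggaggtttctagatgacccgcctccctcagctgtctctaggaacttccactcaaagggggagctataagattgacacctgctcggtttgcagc
Stim2: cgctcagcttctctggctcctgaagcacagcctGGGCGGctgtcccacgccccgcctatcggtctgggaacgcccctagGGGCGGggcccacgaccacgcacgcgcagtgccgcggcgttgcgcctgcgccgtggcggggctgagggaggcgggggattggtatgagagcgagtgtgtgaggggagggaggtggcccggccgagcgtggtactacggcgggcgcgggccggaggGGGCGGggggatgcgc
Atp2b1: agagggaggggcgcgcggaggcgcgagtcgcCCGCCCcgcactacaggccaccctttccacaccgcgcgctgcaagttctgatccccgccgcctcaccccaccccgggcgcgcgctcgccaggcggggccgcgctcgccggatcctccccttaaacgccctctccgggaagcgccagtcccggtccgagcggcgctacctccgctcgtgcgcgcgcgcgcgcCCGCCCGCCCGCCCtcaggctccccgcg
Cacna1d: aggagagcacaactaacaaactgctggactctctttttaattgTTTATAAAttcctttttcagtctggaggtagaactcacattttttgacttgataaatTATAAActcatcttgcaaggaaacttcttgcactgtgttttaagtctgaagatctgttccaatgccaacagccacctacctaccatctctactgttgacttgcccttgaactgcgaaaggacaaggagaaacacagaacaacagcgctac
Of the 9 windows, 7 held GGGCGG, 2 held ACGTG and 1 held TATAAA, whereas 32.7%, 16.6% and 12.4% of the 32851 windows of the same length did. Those 32851 windows were not chosen by signal, whereas the 9 belong to genes picked as bright, some with more than 1 window. The printed Atp2c1 window had none of them and a GC content of 51.6%. The Stim2 and Atp2b1 windows, of the genes that were lower, had 3 and 4 matches to GGGCGG and a GC content of 74.8% and 78.4%. The printed Cacna1d window, with a GC content of 39.6%, was the one with TATAAA, in 3 matches of which some overlap. Atp2c1, Cacna1d and Atp2b1 each have another start inside the gene, and those windows held 2, 5 and 3 matches to GGGCGG. Their GC content was 70.8%, 86.4% and 80.8%, so the lower GC of the printed Atp2c1 and Cacna1d windows did not hold for both starts. The letters ACGTG were found in that second Atp2c1 window and in the Itpr3 window, a gene that was higher and a gene that was lower. A match describes the letters of a window only.

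Genes that work with these channels and pumps were taken from lists made by function. Of 64 calcium handling partners found, 43 were measured, with a median log2 ratio of -0.013, 21 above and 22 below 0, with 2 past 2-fold on the lower side and none on the higher, where 1.44% of all measured genes were lower and 1.82% higher. Tpcn1, which encodes a calcium-permeable channel of endosomes and lysosomes, gave 98.9 in control islets and 37.5 in knockout-labelled ones, 2.64-fold lower. Plcb3, a phospholipase C gene named to complete the count, gave 52.9 and 10 and was at least 2.44-fold lower. The mitochondrial calcium uniporter gene Mcu gave 116 and 74.1 (log2 ratio -0.64). On the other side stood the junctophilin gene Jph4, at 48.4 and 76.4 (0.66), and the phospholipase C gene Plcb2, at 24.7 and 38.6 (0.64). Saraf, an inhibitor of store-operated entry named after its value was seen, gave 4784 and 5154.

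Calcium sensors and effectors had 32 measured genes of 39 found, with a median log2 ratio of -0.13, 11 above and 21 below 0. In this list 1 gene of 32 passed 2-fold on the higher side and none on the lower, near the shares over all genes (1.82% and 1.44%). The higher gene was Camkk2, which encodes an upstream kinase of calmodulin-dependent kinases, which gave 41.6 in control islets and 84.1 in knockout-labelled ones, 2.02-fold higher. Camk2d, a subunit gene of the calcium/calmodulin-dependent kinase II, gave 54.2 in control islets and 30.5 in knockout-labelled ones (log2 ratio -0.83). The calcium-binding protein gene S100a6 gave 402 and 278, and the synaptotagmin gene Syt13 gave 1586 and 1100 (log2 ratios of -0.53 each). The sister genes Camk2b and Camk2g, named after their values were seen, were on the other side from Camk2d, at 0.39 and 0.48.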

How the data were processed

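Total RNA (6 µg) from 1 control and 1 knockout-labelled islet preparation was hybridised on Affymetrix arrays, per the labels. The deposited values are linear intensities, and MAS5 is named in the submitters' processing notes. Its version, scaling target and detection calls are not given in the sources used here. Intensities were used as deposited.

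In the platform annotation, 34945 probe sets had a single gene, which named them; 932 had several and 9160 had none. A gene was represented by its probe set of highest mean log2 signal. Log2 ratios were taken with signals under the array's 50th percentile set to that value, and genes under it on both arrays were left out. The floor is not a detection limit. The procedure was checked on simulated data, with changes past 2-fold planted in brighter genes only. That check does not cover smaller ratios, dim genes or bounds. The number of arrays limits the precision, and no test or standard error was possible. Nothing says how many animals or cultures lie behind an array.

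Members and lists were chosen with earlier results of these data known. Signals are given for members with a log2 ratio of 0.5 or more in size on both arrays, for bounds, for preset islet-relevant members and for up to 4 genes of each calcium list by size of ratio; others are said to be named after their values were seen. Alternatives covered the floor, a pseudocount of 16, scaling, probe set choice, the fold limit and the grouping. Python 3.11.15, numpy 2.4.6, pandas 2.3.3 and statsmodels 0.14.6 were used.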

Additional observations from a re-analysis of the deposited data

How the results depend on the processing

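No paired analysis was possible because each group has 1 array, and no array could be left out. Division by the array median, quantile normalization and loess moved the median log2 ratio of all genes by under 0.01. Quantile normalization and loess moved the store median from 0.020 to 0.13 and 0.0996, and the plasma membrane median minus the store median from -0.079 to -0.22 and -0.18, changes larger than the main values. The floor and the fold limit set the counts. Over all genes, higher and lower counts were 695 and 638 at a floor of the 30th percentile, 96 and 64 at the 70th, 814 and 732 at 1.5-fold and 51 and 17 at 3-fold. Among the members, 2 were higher and 4 lower at a floor of the 30th percentile, all with a signal under 40 on both arrays. At 1.5-fold, 6 were higher and 6 lower. Without a floor (pseudocount 16) 1 member was higher, Cacng2, and averaging all probe sets of a gene made 1 higher, Trpm5 (log2 ratio 1.22, through a probe set at 2.4 and 16.1).

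The difference between the plasma membrane and store medians ran from -0.22 to 0.19 over the alternatives, changing sign. Averaging all probe sets of a gene made it 0.19 and the store median -0.32. That mean takes in probe sets under the floor, and with it the family medians were -0.57 for alpha2delta subunits, -0.14 for TRPC, 0.31 for Orai, -0.93 for IP3 receptors, -0.35 for Golgi pumps and -0.36 for STIM sensors. With the floor at the 70th percentile, fewer genes were measured, and the medians were -0.53 for calcium channel pore subunits, -0.57 for alpha2delta subunits, -0.16 for TRPC, 0.17 for TRPM and -0.93 for IP3 receptors. With the floor at the 30th they were -0.56 for beta subunits, -0.12 for gamma subunits, -0.15 for TRPC and 0.16 for IP3 receptors. Without a floor they were -0.41 for alpha2delta subunits, 0.15 for gamma subunits, -0.13 for TRPC and 0.014 for plasma membrane pumps. The IP3 receptor median was -0.38 without _x_at and _s_at probe sets. Filtering on the mean of both arrays, an alternative chosen after seeing the data, left the alpha2delta median at -0.57. These families hold 1 to 5 measured genes, so a single gene passing the floor moves a median. Of the single genes, 5 changed sign when all probe sets were averaged: Atp2c1 (-0.35), Orai1 (0.37), Trpm7 (-0.14), Cacna1c (0.096) and Stim1 (-0.042).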

Other observations

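Another 2 probe sets carry the symbol Trpc2 together with that of a neighbouring or readthrough gene, and so name no member. The brighter one gave 49.2 in control and 18.4 in knockout-labelled islets. The other was under the floor on both arrays (2.5 and 1.6).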
